A study of Mus musculus with 6 samples.

Results

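The 10 genes described here control the making of skeletal muscle, and they were measured by RNA sequencing of cultured skull cells. They are Pax7, Myf5, Myod1, Cdh15, Myog, Myf6, Mef2c, Mymk, Chrna1 and Chrng, chosen by gene symbol, and all 10 are among the 17830 genes of the deposited count table. The 6 libraries came from cells labelled as skull bone osteoblasts of mice aged 6 months, male by the study's legend, on the C57BL/6J background. In the control group (mOCN-Cre; Ai9, n = 3), a Cre recombinase knocked in behind the osteocalcin gene Bglap switches on the Ai9 reporter, which makes the red protein tdTomato. The APPswe group (TgAPPswemOCN-Cre; Ai9, n = 3) carries both of these alleles and a human APP transgene with the Swedish mutations, expressed from the CAG promoter once the same Cre has removed a stop cassette. In both groups calvarial fragments were digested and placed in culture for outgrowth of cells, and tdTomato-positive cells were collected by flow cytometry. Whether a library held 1 mouse or several is not given in the sources used here, and nothing says that the replicates are separate mice or cultures, so the p-values measure the spread between these libraries, which may be technical. Because bulk RNA was sequenced, more cells of a type and more of its RNA per cell cannot be told apart.

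Skeletal muscle forms in stages, each with its own regulators. Satellite cells, the resident stem cells of muscle, carry the paired-box factor Pax7. Once activated, they become myoblasts under the basic helix-loop-helix factors Myf5 and Myod1. Myog, with Myf6 and Mef2c, then drives differentiation, the membrane protein myomaker (Mymk) lets myoblasts fuse, and the young fibre makes acetylcholine receptors that hold the alpha subunit Chrna1 and the fetal gamma subunit Chrng. The factors of the Myod1 family bind DNA at E-boxes, which have the letters CANNTG.

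In APPswe libraries, 6 of the 10 genes rose: Myod1, Cdh15, Myog, Mymk, Chrna1 and Chrng. Together the 6 genes summed to 8, 51 and 8 counts in control and to 542, 607 and 636 in APPswe libraries, where values are listed, here and throughout, in the order of replicates 1, 2 and 3. Of the other 4 genes, Mef2c did not pass the test, and Pax7, Myf5 and Myf6 had at most 4 counts in any library. By the stage assigned to each gene here, those that rose were Myod1 and Cdh15 (myoblast), Myog (differentiation), Mymk (fusion) and both receptor genes. The other genes assigned to differentiation, Mef2c and Myf6, were not called. Pax7 and Myf5, assigned here to the satellite cell, were at or near the floor in both groups. By the outline above Myf5 also acts beside Myod1 in the making of myoblasts, so that stage held a gene too low to test. A gene was called when its adjusted p from edgeR's quasi-likelihood test was at most 0.05, with Benjamini-Hochberg adjustment over 13484 genes, and its absolute log2 fold change at least 1. By this rule 3.74% of all genes tested were called higher and 3.60% lower, 7.34% in all. Without control replicate 2, described next, all 6 genes were called higher as well, where 4.87% of all genes tested were called higher and 6.58% lower. The 6 genes entered the test through their counts in APPswe libraries, so their share among the members tested carries no weight of its own.

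**Figure D1:**
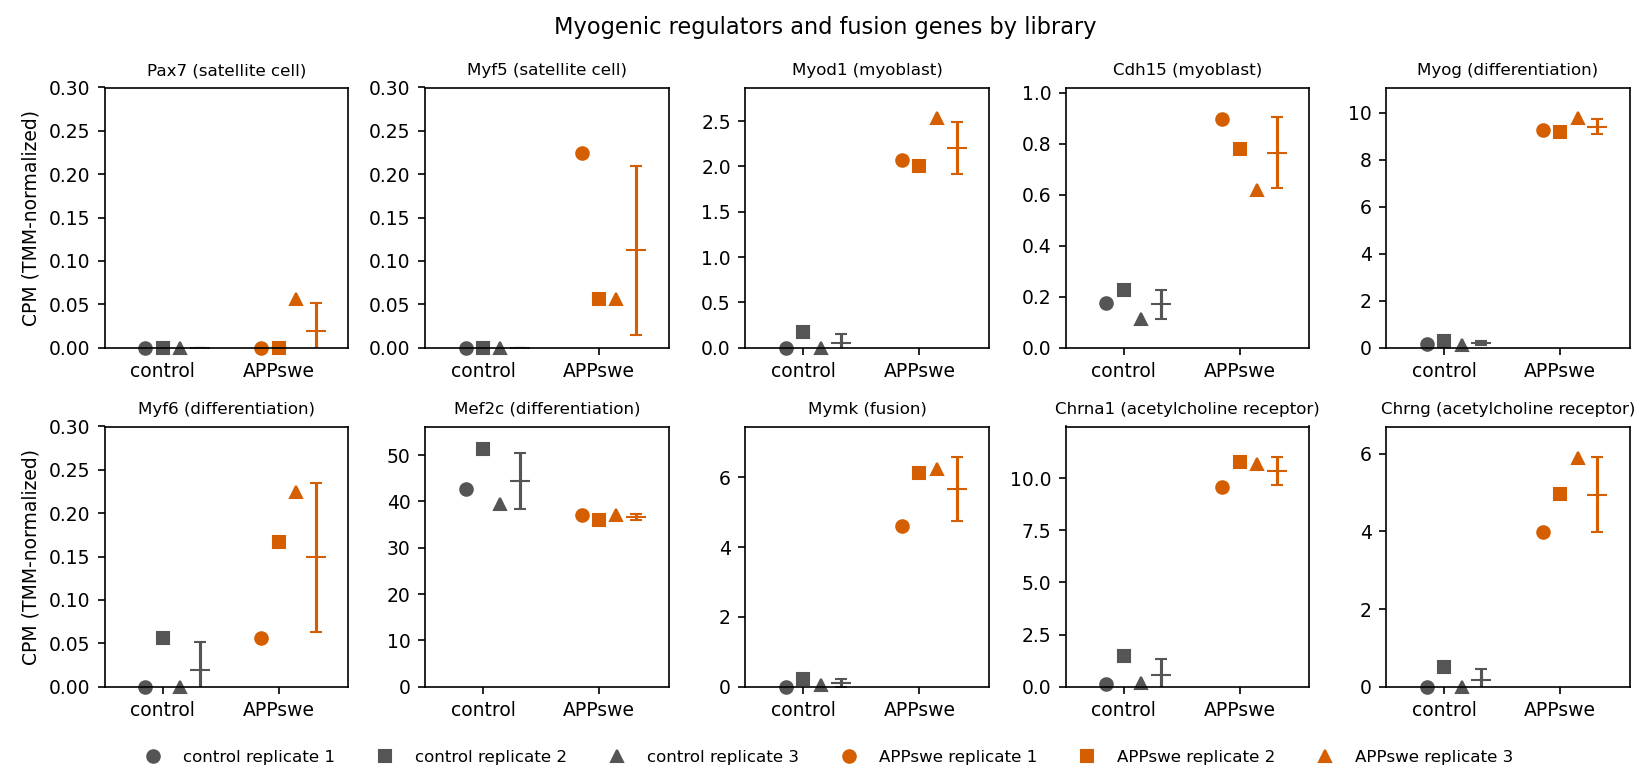
CPM (counts scaled to the size of each library, with edgeR's TMM factors) of each of the 10 genes in each library, on linear axes that differ between panels and start at 0. Points are libraries, with replicates 1, 2 and 3 as circle, square and triangle, and the bars give the mean and SD (n = 3) of each group. Myod1, Cdh15, Myog, Mymk, Chrna1 and Chrng are higher in every APPswe library than in every control library, and Mef2c is lower.

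The libraries themselves differ in ways that bear on these values. Total counts lay between 17263757 and 18398392, and 3 counts, taken as the floor of detection for counting error only, equal 0.167 to 0.173 CPM (counts scaled to the size of the library). Control replicate 2 stands apart. It had 1 count of the osteocalcin gene Bglap and 3 of Ibsp, another gene of bone-forming cells, where the other libraries had 115 to 204 and 940 to 1468. Its 4 Y-linked genes summed to 0.112 CPM against 127 to 197 CPM in the other libraries. The study's legend gives male mice only, and these counts go against it. The deposited library names carry a hyphen for control replicates 1 and 2 and APPswe replicate 1 and none for the others. Control replicate 2 is also the only library with the letter S in its name, where all others have L. What these spellings stand for is not given. Macrophage markers were abundant throughout, with a summed level of 18252 to 25041 CPM over 13 genes in control and 12642 to 13609 CPM in APPswe libraries, of the same order as the 13 osteoblast markers at 17574 to 18839 and 11629 to 12259 CPM. A few genes carry these sums. Over all libraries Lyz2 was at 7148 to 16084 CPM, Spp1 at 3472 to 9315, Col1a1 at 3585 to 5705 and Col1a2 at 4145 to 5732 CPM. The sums therefore do not compare amounts of the cell types.

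The letters before the RefSeq gene start are shown for Chrng, Chrna1, Myog and Cdh15, since these 4 rose together and E-boxes are where the Myod1 family binds. The sequences are the 250 bases before the RefSeq start, from the RefSeq annotation of GRCm38.p6, in which 7 of the 10 genes had an entry, and each reads 5′ to 3′ on the strand of its gene. Capitals mark each match to CANNTG, which reads the same on both strands. The regions are chr1:87205561-87205810 on the plus strand for Chrng, chr2:73580339-73580588 on the minus strand for Chrna1, chr1:134289754-134290003 on the plus strand for Myog, and chr8:122848124-122848373 on the plus strand for Cdh15.
Chrng: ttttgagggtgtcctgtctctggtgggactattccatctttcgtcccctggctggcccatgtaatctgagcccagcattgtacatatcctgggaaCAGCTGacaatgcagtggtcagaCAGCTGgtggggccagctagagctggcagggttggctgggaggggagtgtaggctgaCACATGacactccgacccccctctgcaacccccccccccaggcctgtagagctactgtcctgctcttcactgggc
Chrna1: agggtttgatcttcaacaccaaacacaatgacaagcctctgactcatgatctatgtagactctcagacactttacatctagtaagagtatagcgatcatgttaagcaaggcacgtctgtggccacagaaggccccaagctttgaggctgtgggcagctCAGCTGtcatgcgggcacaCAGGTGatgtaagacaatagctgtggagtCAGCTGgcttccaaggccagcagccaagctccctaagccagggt
Myog: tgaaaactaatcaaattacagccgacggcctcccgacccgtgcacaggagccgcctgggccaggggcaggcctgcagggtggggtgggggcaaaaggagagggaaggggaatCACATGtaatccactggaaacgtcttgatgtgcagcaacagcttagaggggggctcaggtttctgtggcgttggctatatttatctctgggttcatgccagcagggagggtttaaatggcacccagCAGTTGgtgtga
Cdh15: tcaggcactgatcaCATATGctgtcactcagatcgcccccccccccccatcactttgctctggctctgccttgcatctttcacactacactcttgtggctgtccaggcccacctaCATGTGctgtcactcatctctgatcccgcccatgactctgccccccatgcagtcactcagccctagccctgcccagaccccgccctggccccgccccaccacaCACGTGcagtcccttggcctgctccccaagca

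Positions are counted from the RefSeq start to the first base of the match. Chrng holds CAGCTG, one form of the E-box, at -155 and -132 and another E-box at -75. Chrna1 holds this form at -92 and -44 and another E-box at -73. Myog holds other E-boxes at -138 and -12, and Cdh15 holds them at -236, -135 and -32. A second annotation, GENCODE M21, starts Chrng at 87204657, Cdh15 at 122847966 and Myog at 134289989, each upstream of the RefSeq start. By those starts all matches of Chrng and Cdh15, and that of Myog at -12, lie inside the gene. Mef2c, which was not called, has E-boxes at -234 and -100 in one of its 3 RefSeq windows. Another of its windows, which lies inside its gene span, holds an E-box at -245. The windows of Pax7 and Myf5 hold none. On the minus strand they reach up to 139833218 and 107486384, inside the gene spans given below. The bases before those spans were therefore not searched. The letters CAGCTG occur in 13.0% of the 32851 promoter windows of the same length and CANNTG in 66.2%. A strict consensus of the MEF2 site, searched on both strands, has no match in the 4 windows and matches in 2.92% of all. Forms that depart from this consensus, even by a base, were not searched, so MEF2 sites in these windows are not excluded. These are matches of letters, not sites of binding, and binding was not measured.

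The satellite cell genes were barely detected. Gene positions here and for the other genes are the RefSeq spans on GRCm38.p6, and gene IDs are those of the count table. Pax7 (gene ID 18509, chromosome 4, 139737059 to 139833530) had 0 counts in all 3 control libraries and in APPswe replicates 1 and 2, and 1 count in APPswe replicate 3. Myf5 (gene ID 17877, chromosome 10, 107482908 to 107486927), the earliest of the determination factors, had 0 counts in each control library and 4, 1 and 1 in APPswe libraries. Neither gene had enough counts for the test, no fold is given, and the depth allows a level of up to 0.173 CPM where a library shows 0. Without a filter on low counts edgeR's adjusted p was 0.142 for Myf5 and 0.484 for Pax7. Of 22 other genes used by satellite cells and their embryonic progenitors 18 were tested, 1 was called higher and 2 lower, and the median log2 fold change was 0.044 beside -0.0033 over all genes tested. The list had 1 gene called higher and 4 lower without control replicate 2, and its median was then -0.13. The higher gene was Megf10, a receptor with EGF-like repeats found on satellite cells (log2 fold change 1.05, edgeR adjusted p = 0.0217). The lower ones were Eya1, a cofactor of homeobox factors of muscle progenitors (-1.93, adjusted p = 0.00110), and Cd34, a surface protein also found on endothelial and blood progenitors (-1.04, adjusted p = 0.00100). Megf10 kept its call in 1 of the 6 fits that each left out a library. Fgfr4, a receptor of muscle progenitors, had 0 counts in each control library and 4, 5 and 6 counts in the APPswe libraries, at least 1.64-fold higher against the floor of 3 counts per library, and was not tested.

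Myod1 (gene ID 17927, chromosome 7, 46376474 to 46379092), the factor that commits cells to the muscle lineage, had 0, 3 and 0 counts in control and 37, 36 and 45 in APPswe libraries. All of its control counts came from replicate 2. On the normalized scale this is 0.0562 ± 0.0974 CPM (SD, n = 3) against 2.20 ± 0.284 CPM (SD, n = 3). The fitted log2 difference was 5.11 ± 0.71 (SE, edgeR adjusted p = 0.00451), and the ratio of the summed counts was 38.8, with an exact 95% counting interval from 12.9 to 191. Without control replicate 2 both remaining controls are at 0, and Myod1 was at least 12.9-fold higher against the floor of 3 counts per library (edgeR adjusted p = 1.08e-05).

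Cdh15 (gene ID 12555, chromosome 8, 122848374 to 122867397) encodes M-cadherin, the adhesion protein between satellite cells, myoblasts and fibres. It had 3, 4 and 2 counts in control and 16, 14 and 11 in APPswe libraries, the smallest rise of the 6 genes. Its level was 0.170 ± 0.0560 CPM in control and 0.765 ± 0.140 CPM in APPswe libraries (SD, n = 3 each), with APPswe minus control at 2.12 ± 0.40 (SE, edgeR adjusted p = 0.0128) on the log2 scale. The call ended when APPswe replicate 1, 2 or 3 was left out, with adjusted p-values of 0.0696, 0.0733 and 0.0551 and log2 fold changes of 2.00, 2.11 and 2.25. GENCODE M21 places a second gene, Gm20388, over Cdh15 on the same strand, and how reads were shared between them is not given.

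Myog (gene ID 17928, chromosome 1, 134290004 to 134292548), the factor of terminal differentiation, had the smallest standard error of the 6. Its counts were 3, 5 and 2 in control and 165, 165 and 174 in APPswe libraries. The fitted log2 difference was 5.58 ± 0.28 (SE, edgeR adjusted p = 0.000296), or 5.98 without control replicate 2, and Myog kept its call in all 6 fits that each left out a library. Ordered from the most positive log2 fold change, it stood at rank 20 of 13484. Myf6 (gene ID 17878, chromosome 10, 107492848 to 107494723), which acts late and marks mature fibres, had 0, 1 and 0 counts in control and 1, 3 and 4 in APPswe libraries. The groups touch at 1 count, the gene was not tested, and without a filter edgeR's adjusted p was 0.160.

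Mef2c (gene ID 17260, chromosome 13, 83504017 to 83667079) did not follow Myog. This MADS-box factor works with the Myod1 family in muscle and is also made outside muscle, for example in myeloid, endothelial and bone cells. It had 738, 912 and 699 counts in control and 662, 646 and 660 in APPswe libraries. Its level was 44.4 ± 6.11 CPM in control and 36.7 ± 0.642 CPM in APPswe libraries (SD, n = 3 each). On this scale every APPswe library lay below every control library, as held for 22.2% of all genes tested, while 22.8% were separated the other way. On the FPKM scale of the deposited table the groups overlapped, with up to 6.45 in APPswe and from 6.37 in control libraries. The fitted log2 difference was -0.27 ± 0.11 (SE, edgeR adjusted p = 0.122), and without control replicate 2 it was -0.16 (SE 0.076, adjusted p = 0.112). The gene was not called in any alternative run.

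Mymk (gene ID 66139, chromosome 2, 27061636 to 27072161), is required for myoblast fusion. It had 0, 4 and 1 counts in control and 82, 110 and 111 in APPswe libraries. Its level was 0.0938 ± 0.117 CPM in control and 5.65 ± 0.917 CPM in APPswe libraries (SD, n = 3 each), with APPswe minus control at 5.80 ± 0.59 (SE, edgeR adjusted p = 0.00162) on the log2 scale. Without control replicate 2 the remaining controls had 0 and 1 counts. The fitted 7.32 (SE 0.49) on the log2 scale then rests on 1 count. Mymk was at least 33.0-fold higher against the floor of 3 counts per library. Its partner in fusion, the small membrane protein Mymx (myomixer), had 0 counts in each control library and 10, 16 and 12 in the APPswe libraries. Mymx was at least 4.16-fold higher against the floor of 3 counts per library (edgeR adjusted p = 0.00881). It kept its call in 4 of the 6 fits that each left out a library, where the highest adjusted p was 0.0570. Of the 16 fusion and adhesion genes found besides the members, 13 were tested, 2 were called higher and 1 lower, with a median log2 fold change of -0.15. The second higher gene was Cav3, the caveolin of muscle membranes (log2 fold change 2.78, adjusted p = 0.00530). The lower one was Jam2, a junctional adhesion protein also made by endothelium (-2.12, adjusted p = 0.0158), which kept its call in 3 of the 6 fits. General adhesion and engulfment genes of the list, such as Itgb1, Cdh2 and Dock1, had log2 fold changes of -0.15, -0.22 and 0.017 and were not called.

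Both receptor genes rose. Chrna1 (gene ID 11435, chromosome 2, 73563281 to 73580338), the subunit that binds acetylcholine, had 2, 26 and 3 counts in control and 171, 193 and 190 in APPswe libraries. Chrng (gene ID 11449, chromosome 1, 87205811 to 87211835) had 0, 9 and 0 in control and 71, 89 and 105 in APPswe libraries. In both genes control replicate 2 was the highest of its group and still below each APPswe library. Chrna1 was at 0.582 ± 0.762 CPM in control and 10.3 ± 0.652 CPM in APPswe libraries (SD, n = 3 each), with APPswe minus control at 4.13 ± 0.72 (SE, edgeR adjusted p = 0.00990) on the log2 scale. Chrng was at 0.169 ± 0.292 and 4.95 ± 0.960 CPM (SD, n = 3 each), with APPswe minus control at 4.81 ± 0.87 (SE, edgeR adjusted p = 0.0110) on the log2 scale. Without control replicate 2, Chrna1 was higher by 6.11 on the log2 scale (edgeR adjusted p = 3.11e-08), and Chrng, with both remaining controls at 0, was at least 28.9-fold higher against the floor (edgeR adjusted p = 2.86e-06). Leaving out an APPswe library ended calls, with adjusted p-values of 0.0525 and 0.0530 for Chrna1 (without replicates 2 and 3) and of 0.0516, 0.0581 and 0.0612 for Chrng (without replicates 1, 2 and 3).

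The receptor of fetal muscle holds the gamma subunit, which the epsilon subunit Chrne replaces in the adult. Chrne had 0, 0 and 1 counts in control and 2, 0 and 2 in APPswe libraries, and it was not tested. In APPswe libraries the log2 ratio of Chrng to Chrne counts, with 0.5 added to each, was 5.91 ± 1.39 (SD, n = 3) against 0.89 ± 3.02 (SD, n = 3) in control, where Chrng had 9 counts in replicate 2 and 0 in the others. The difference had a p of 0.10 in a two-sided exact permutation test, the smallest that 3 against 3 libraries allow, and 0.20 adjusted over the 4 ratios tested. The delta subunit Chrnd rose with the gamma subunit, from 0, 2 and 0 counts in control to 32, 34 and 37 in APPswe libraries, by 5.43 on the log2 scale (edgeR adjusted p = 0.00293). Of 12 genes of the neuromuscular junction besides the members, 11 were tested and edgeR called 4 higher and none lower, with 5 and 2 at an adjusted p of at most 0.05 alone, 7 and 4 at an unadjusted p under 0.05, and a median of 0.73. The 4 fell to 2 without APPswe replicate 1, 2 or 3, and DESeq2 called 3 higher and none lower. With replicate number or library name style as a covariate edgeR called 2 higher, and with name style also 1 lower. Limma called 2 higher on log2(FPKM + 0.1) and none on log2(FPKM + 1). Leaving out control replicate 2 gave 3 called higher and 2 lower, the latter being Rapsn, which anchors the receptors (-1.11), and Erbb3, a neuregulin receptor (-1.19). Musk, the kinase that gathers the receptors, had a log2 fold change of 2.24 (adjusted p = 0.00381), and its activator Dok7 had 2.14 (adjusted p = 0.0429). Dok7 kept its call in 2 of the 6 fits that each left out a library.

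**Figure D2:**
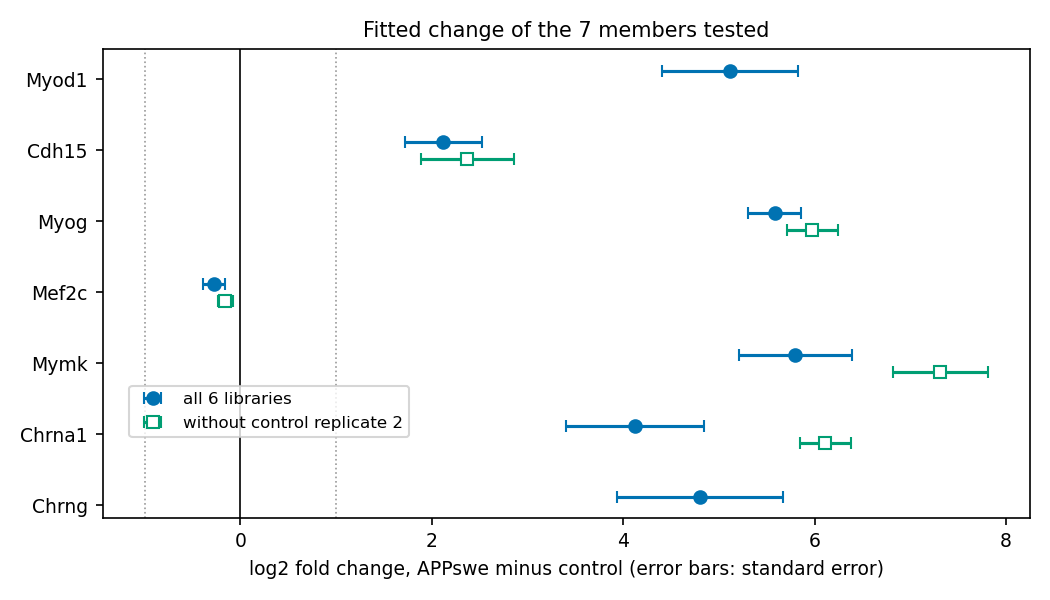
Fitted log2 fold change, APPswe minus control, of the 7 genes tested, with all 6 libraries (filled circles) and without control replicate 2 (open squares), error bars giving the standard error. Dotted lines mark -1 and 1. Mef2c is near 0 at -0.27 while the other 6 lie between 2.12 and 5.80, and Myod1 and Chrng have no open square because both remaining controls are at 0. The open square of Mymk rests on 0 and 1 counts in those controls.

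Levels of different genes were compared per length, on the FPKM scale of the deposited table (fragments scaled for transcript length and for the size of the library). In APPswe libraries the order was Myog at 7.90 ± 0.233, Mef2c at 6.31 ± 0.156, Mymk at 5.26 ± 0.786, Chrng at 3.07 ± 0.595, Chrna1 at 2.61 ± 0.148 and Myod1 at 1.41 ± 0.174 FPKM (SD, n = 3 each). Cdh15 followed at 0.303 ± 0.0603, Myf6 at 0.153 ± 0.0862 and Myf5 at 0.0633 ± 0.0577 FPKM (SD, n = 3 each), and Pax7 was listed between 0 and 0.01 or left blank. Chrng and Chrna1 overlapped between libraries, as did Myf6 and Myf5, and the other neighbours in this order did not. In control libraries Mef2c, at 6.37 to 8.36 FPKM, was the only one of the 10 above 0.35 FPKM in any library.

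**Figure D3:**
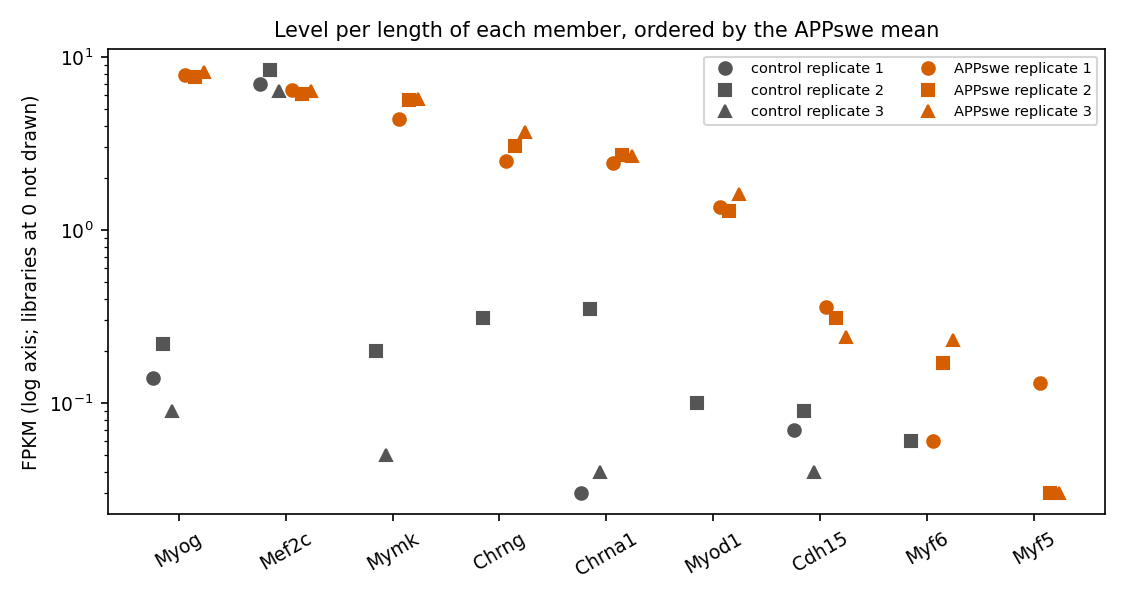
FPKM of 9 of the genes in each library on a log axis, ordered by the mean of the APPswe libraries, with control in grey and APPswe in orange and replicates 1, 2 and 3 as circle, square and triangle. Libraries listed at 0 are not drawn, and Pax7 is left out. In control libraries Mef2c lies at 6.37 to 8.36 FPKM and the other genes at or below 0.35 FPKM, and in APPswe libraries Myog reaches 7.69 to 8.15 FPKM.

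Within APPswe libraries the genes kept similar proportions. Myog made up 30.4%, 27.2% and 27.4% of the counts of the 6 called genes in replicates 1, 2 and 3, Chrna1 31.6%, 31.8% and 29.9%, and Mymk 15.1%, 18.1% and 17.5%. In control replicate 2, whose 51 counts were the most of any control, Chrna1 made up 51.0% (exact binomial 95% interval 36.6% to 65.2%) and Myog 9.80% (3.26% to 21.4%). The Chrna1 interval lies above its share in each APPswe library and the Myog interval below. The mean APPswe level over that of control replicate 2 was 33.5-fold for Myog, 25.1-fold for Mymk, 9.78-fold for Chrng and 7.07-fold for Chrna1. The intervals cover counting error only, and the other controls, with 8 counts each, are too shallow for such shares. The log2 ratio of Myog to Myod1 was 2.09 ± 0.130 in APPswe and 1.93 ± 1.13 in control libraries (SD, n = 3 each), a difference of 0.16 (exact permutation p = 1.00) that turned to -0.48 without control replicate 2. That of Mymk to Myog was -0.74 ± 0.227 and -1.28 ± 1.34 (SD, n = 3 each), a difference of 0.53 (exact permutation p = 0.80) that turned to -0.23 without control replicate 1. That of Myf5 to Myod1 was -4.20 ± 0.997 and -0.94 ± 1.62 (SD, n = 3 each), with an exact permutation p of 0.10. Since Myod1, Myf5 and Mymk are at 0 in 1 or more control libraries, the control ratios rest on the 0.5 count added.

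Of 11 partners and cofactors of the Myod1 family 8 were tested, and edgeR called 2 higher and none lower, as DESeq2 did, with 3 higher and none lower at an unadjusted p under 0.05 and a median log2 fold change of 0.23. The 2 were Smyd1, a histone methyltransferase of striated muscle (log2 fold change 4.79, edgeR adjusted p = 0.000851), and Klhl41, a kelch protein of the sarcomere (3.90, adjusted p = 0.00110). The E proteins Tcf3, Tcf4 and Tcf12, which pair with Myod1, had log2 fold changes of 0.19, -0.0045 and 0.18 and adjusted p-values of at least 0.296, and Mef2a and Mef2d had -0.051 and 0.27. Of 15 genes that hold back myogenic factors, 13 were tested and none was called by edgeR as scaled here, with 4 higher and 1 lower at an adjusted p of at most 0.05 alone, 6 and 1 at an unadjusted p under 0.05, and a median of 0.49. The count called higher was 1 by DESeq2, 1 by edgeR with DESeq2 size factors, 2 by edgeR without TMM, 2 without control replicate 3, and 1 or 2 by limma on FPKM. The inhibitor Id1 had a log2 fold change of 0.90 (adjusted p = 0.00431) and Id3, which also binds E proteins, 1.05 (adjusted p = 0.0501). Without control replicate 2 the median of the inhibitors was 0.092.

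Genes of the contractile apparatus were also called. Of 27 sarcomere and contraction genes 24 were tested and 23 were called higher, with a median log2 fold change of 4.63, and their summed level was 14.3, 32.6 and 15.9 CPM in control and 377, 364 and 370 CPM in APPswe libraries. As for the 6 genes above, most of this list had few counts in control libraries and entered the test through APPswe libraries, so the share and the median carry no weight of their own. The embryonic and perinatal myosin heavy chains Myh3 and Myh8 had 1, 35 and 2 and 1, 12 and 0 counts in control libraries and 330, 332 and 320 and 201, 184 and 199 in APPswe libraries. Of the adult fast myosins, Myh1 had 6, 24 and 8 counts in control and 489, 478 and 468 in APPswe libraries, while Myh2 (0, 0 and 0 against 1, 3 and 2) and Myh4 (0, 4 and 0 against 4, 6 and 12) were not tested. The largest fitted changes of the list belonged to Myh7, the slow myosin heavy chain (6.61), titin (Ttn, 5.86) and Tnnt2 (5.66), while Ckm, the creatine kinase of mature muscle, had 0 counts in every control and 7, 4 and 2 in the APPswe libraries.

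**Figure D4:**
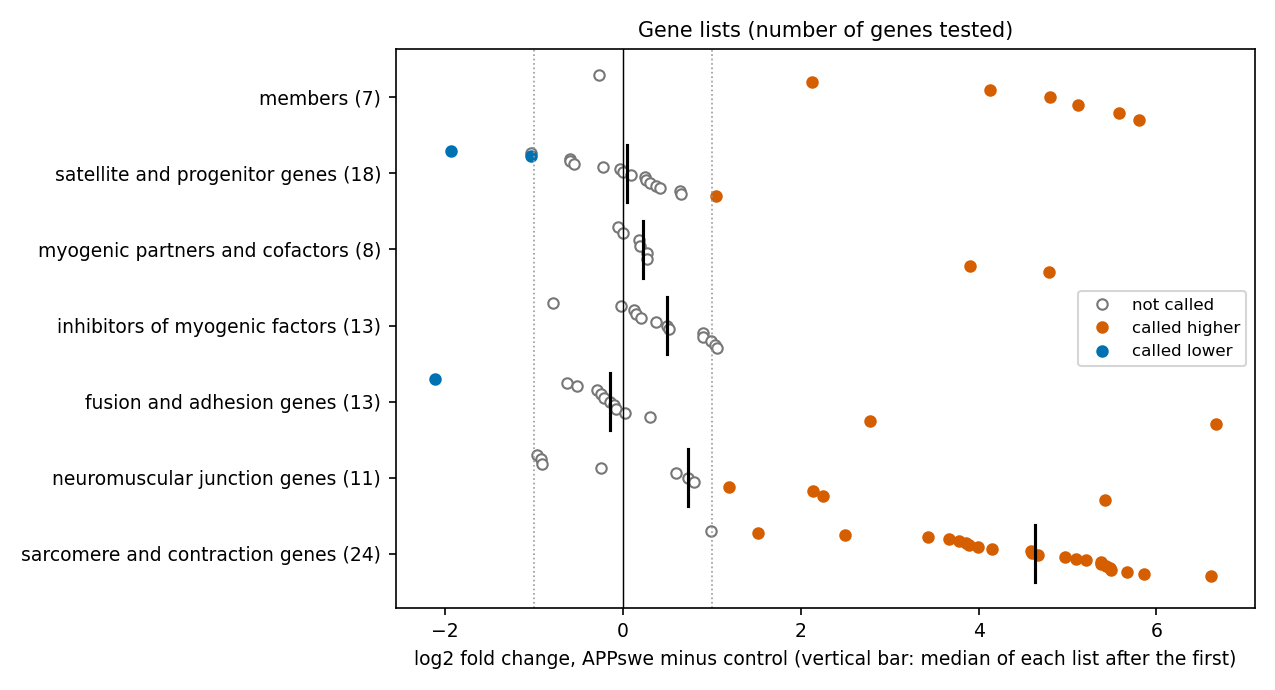
Log2 fold change, APPswe minus control, of each gene tested in the 10 genes described (members) and in 6 further lists of muscle genes. Filled points were called higher (orange) or lower (blue), open points were not called, vertical bars give the median of each list after the first, and dotted lines mark -1 and 1. The sarcomere list has its median at 4.63, and the other 5 lists have medians between -0.15 and 0.73.

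Markers of other cell types moved as well, and their part in the results was not tested. Of 8 osteoclast markers 3 were called higher, with a summed level of 235 to 384 CPM in control and 668 to 680 CPM in APPswe libraries. Without control replicate 2 there were 4 called higher and 1 lower, the latter being Itgb3 (log2 fold change -1.04). Of 6 endothelial markers tested 2 were called lower, with a summed level of 81.8 to 253 CPM in control (lowest in replicate 2) and 24.3 to 25.8 CPM in APPswe libraries. All 7 endothelial markers were tested and called lower without control replicate 2, with a median log2 fold change of -4.36. The 8 smooth muscle and pericyte markers summed to 1320 to 2474 CPM in control (highest in replicate 2) and 2725 to 2834 CPM in APPswe libraries, with 1 called higher and 3 without control replicate 2. The 8 cardiac markers found summed to 1.29 to 3.70 CPM in control and 4.15 to 5.62 CPM in APPswe libraries, and the 1 tested, Tnni3, was called higher. Of the defining cardiac genes, Nkx2-5 had 0 counts in every library and Myh6 had at most 2. The 8 neuronal and Schwann cell markers summed to 17.03 to 55.6 CPM in control and 15.5 to 16.97 CPM in APPswe libraries, and the 3 tested had a median log2 fold change of -1.33 and were all called lower without control replicate 2. Of the 13 macrophage markers 1 was called higher and 1 lower, with 1 higher and 8 lower at an adjusted p of at most 0.05 alone and a median of -0.74. Of the 13 osteoblast markers 1 was called higher (Sp7) and 1 lower (Spp1), and without control replicate 2 there were 1 higher and 4 lower.

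The genes outside all lists whose profile over the 6 libraries was closest to that of Myog were Lrrc17, Mybph, Igfn1 and Atp2a1. Likeness was the root mean square distance between centred log2 CPM values, which was 0.35, 0.35, 0.36 and 0.39 on the log2 scale. Lrrc17 was at 1.97 CPM on average in control and 41.9 CPM in APPswe libraries, Mybph at 0.264 and 8.25 CPM, and Atp2a1 at 0.339 and 9.33 CPM. For Mef2c the closest were Cdc42se2, Entpd7, Ctss, Hspa5 and Fam98a, at distances from 0.013 to 0.032, each highest in control replicate 2, as Mef2c was. Cdc42se2, the closest, was at 95.3, 113 and 88.7 CPM in control and 83.3, 79.8 and 83.6 CPM in APPswe libraries.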

How the data were processed

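Sample titles gave each library its group and replicate number. The authors deposited read counts per gene without normalization, and FPKM values rounded to 2 decimals, whose blank cells (3339 in all) were read as 0. The same table holds the authors' deposited log2 fold change and p-value columns for APPswe against control, which were not used. Libraries were sequenced by DNBseq. The build named in the submitters' processing notes is GRCm38. The aligner and counting tool are not given in the sources used here.

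The count table was tested with edgeR 4.0.16 (R 4.3.3): TMM normalization, filterByExpr (13484 of 17830 genes kept) and the quasi-likelihood test without a covariate. The standard error is the log2 fold change over the square root of F. Ratios were compared with exact permutation tests in scipy 1.17.1. On simulated data holding 200 genes shifted by 2 log2 units, the test recovered 193 and called 7 unchanged genes of 13362 tested. Genes with few counts were not among those shifted, and no simulated library stood apart as control replicate 2 does. The recovery therefore does not extend to such genes or to such a library. Alternatives were DESeq2 1.42.0, other scalings and filters, limma 3.58.1 on log2(FPKM + 1) or log2(FPKM + 0.1), covariates and single libraries left out. Counts differed in all replicate pairs beyond sampling noise, with chi-square over its degrees of freedom at 1.57 or more. It was 1.57 for APPswe replicates 2 and 3, and 72.87 and 77.25 for the pairs that hold control replicate 2. The remaining pairs lay between 5.945 and 7.602. The 10 genes and all lists were chosen with earlier results of these data known. All 10 genes are described, with up to 3 called genes in each direction per further list. Fgfr4, Itgb1, Cdh2, Dock1, Id1, Id3, Mef2a, Mef2d, the E proteins, Ckm, Myh1, Myh2, Myh3, Myh4, Myh6, Myh8, Rapsn, Erbb3, Sp7, Spp1, Bglap and Ibsp were named outside this rule after their values were seen. So were Lyz2, Col1a1, Col1a2 and Itgb3. Kirrel1 and Myl7 did not match the table by symbol. The result for 1 gene is not reported here.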

Additional observations from a re-analysis of the deposited data

How the results depend on the processing

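Of the genes described, Myod1, Myog and Mymk kept direction and call in all 16 alternatives run and Mef2c stayed uncalled in all 16. Chrna1 kept its call in 14 of 16, Chrng in 13 of 16 and Cdh15 in 11 of 14, since Cdh15 was too low for the limma fits. These tallies include the adjusted p alone, which is the main fit without its fold threshold. Its outcome for these genes was fixed in advance. With single libraries left out, 3 to 6 of the 10 genes were called higher, the fewest without APPswe replicate 2 or 3, and in all other alternatives 5 or 6. Over all genes these fits called 281 to 670 higher and 230 to 905 lower, the most without control replicate 2 and the fewest without APPswe replicate 3. Among the further myogenesis genes they called 1 to 7 lower. The adjusted p alone gave 1414 higher and 1622 lower over all genes, and 9 lower among the further myogenesis genes. Limma on log2(FPKM + 1) gave 324 and 187, and on log2(FPKM + 0.1) 287 lower. On the log2(FPKM + 1) scale the change of Myog was 2.95 and of Myod1 1.22. Across fits without 1 library, the difference in the log2 ratio of Myog to Myod1 ran from -0.48 to 0.60 and that of Mymk to Myog from -0.23 to 1.03, changing sign in each. Replicate numbers are shared between groups. Deviations from the group means correlated at 0.074, -0.036 and 0.158 for numbers 1, 2 and 3, and 3 of 6 libraries correlated best with their own number. With so few libraries this cannot decide whether the numbers pair them. Pairing by the deposited library names was not checked. With the replicate block 384 genes were called higher and 324 lower, and 6 of the 10 genes. The cause of these shifts was not tested. Counts of at most 5 in the control libraries limit the fold changes of Myod1, Myog, Mymk and Cdh15. Chrna1 and Chrng had more only in control replicate 2, at 26 and 9 counts, so theirs are limited as well.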
